A study of Mus musculus with 26 samples.

Results

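The comparison described here set neural stem and progenitor cells (NSPCs) without SOX2 against wild-type (WT) NSPCs while both were exposed to dexamethasone (Dex), a synthetic glucocorticoid. It used the 13 Dex arrays of the 26 arrays in the series, 6 from WT cultures (numbered 1 to 6) and 7 from SOX2 knockout (KO) cultures (numbered 7 to 13), and took in all 19505 genes that carry a symbol. All cultures were grown from the telencephalon of C57BL/6 mice at postnatal day 0, those of each animal kept apart, in medium with EGF and FGF-1. At passage 3 they received 100 nM Dex for 4 h, and a second array of every culture had the ethanol vehicle for the same time. The labels give neither the allele nor the Cre line behind the knockout, and they state that both sexes were used without giving the sex of any array. Values are on the log2 scale, and all differences are KO minus WT.

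SOX2 is a transcription factor of the HMG-box family that binds short AT-rich motifs and keeps neural progenitors of the brain in a dividing, undifferentiated state. Glucocorticoids cross the cell membrane and bind the glucocorticoid receptor (encoded by Nr3c1), which then moves to the nucleus and binds palindromic response elements near genes such as Fkbp5 and Tsc22d3. In fetal and neonatal brain, glucocorticoids are known to slow the proliferation of progenitors and to favour glial maturation. The comparison asked which genes differed between cells with and without SOX2 during exposure to the ligand of that receptor.

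Promoter windows are shown for the deleted gene and for the genes with the next largest fall and the largest rise, whatever motifs they hold. They are the 250 bases before the annotated start of Sox2 (chr3:34649745-34649994, plus strand), Fndc3c1 (chrX:106485230-106485479, minus strand) and Clic5 (chr17:44188322-44188571, plus strand). They come from RefSeq's annotation of GRCm38.p6. Capitals mark a match to a SOX core (ACAATG or ACAAAG) or to the core of a glucocorticoid response element (ACANNNTGT), either strand searched.
Sox2: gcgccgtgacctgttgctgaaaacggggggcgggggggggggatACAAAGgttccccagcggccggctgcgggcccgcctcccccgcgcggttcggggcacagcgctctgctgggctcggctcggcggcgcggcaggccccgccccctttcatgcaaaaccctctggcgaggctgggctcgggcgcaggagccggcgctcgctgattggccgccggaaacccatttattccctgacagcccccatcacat
Fndc3c1: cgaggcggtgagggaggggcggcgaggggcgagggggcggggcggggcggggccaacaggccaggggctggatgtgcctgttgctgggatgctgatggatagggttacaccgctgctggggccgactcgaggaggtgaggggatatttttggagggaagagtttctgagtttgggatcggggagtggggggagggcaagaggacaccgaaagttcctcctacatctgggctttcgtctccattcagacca
Clic5: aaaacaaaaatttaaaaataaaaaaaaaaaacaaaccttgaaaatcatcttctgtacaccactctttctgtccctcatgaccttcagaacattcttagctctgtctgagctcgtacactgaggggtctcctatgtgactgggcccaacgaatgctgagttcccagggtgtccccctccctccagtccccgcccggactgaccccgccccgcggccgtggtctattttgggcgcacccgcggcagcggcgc
The Sox2 window holds a SOX core, and the windows of Fndc3c1 and Clic5 hold neither motif. Among the 28 genes with the largest rises and falls, such windows were taken for 22 (29 in all). A chromosome was left out of this count, so a gene not counted need not lack an annotated promoter. A SOX core was found for 2 of the 22 genes (Sox2 and Rbms1) and a response element core for 3 (Cybrd1, Dab2 and Slc1a2). The shares given next were taken without that exclusion. Over windows that also include the 50 bases after the start, a SOX core occurred in 22.2% of the 45 promoters of genes called lower in KO, in 17.4% of the 23 promoters of genes called higher and in 25% of the 19143 promoters of all genes matched by symbol. The response element core occurred in 6.67%, 4.35% and 5.85% of them. A match is a stretch of letters and not a measured binding site.

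Sox2 itself gave the check of the genotype labels. On the WT Dex arrays it measured 12.17, 12.64, 13.18, 13.12, 12.85 and 13.82 in cultures 1 to 6, and on the KO Dex arrays 6.50, 5.06, 4.25, 4.74, 5.04, 3.92 and 4.01 in cultures 7 to 13. The groups lay far apart, with the highest KO array in culture 7. The difference was -8.18 ± 0.36 (moderated SE; adjusted p = 2.23e-10, limma with Benjamini-Hochberg adjustment over all genes). Which part of the transcript the probes read, and which part the knockout removes, are not given in the sources used here.

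The treatment label of culture 4 did not hold up in the same way. Over 44 measured glucocorticoid-induced genes, the mean Dex minus vehicle difference was between 0.87 and 1.03 in the other WT cultures and between 0.87 and 1.24 in KO, but -1.11 in culture 4, where 5 of the 44 genes were higher on the array labelled Dex. Results are therefore given with and without that array. The Dex array of culture 12 (KO) stood apart by overall profile, with a median correlation of 0.925 to the other Dex arrays against 0.972 to 0.986 for the rest. The Y-linked gene Eif2s3y was high in WT cultures 1, 2 and 3 and in KO cultures 8 and 10, and so not evenly between the genotypes. The culture profiles were also correlated after the mean of each genotype and treatment group was taken out. This gave 3 array clusters: cultures 1, 2, 3, 7 and 8, cultures 4, 10 and 12, and cultures 5, 6, 9, 11 and 13. Each holds both genotypes, but with the genotype means removed this does not show whether genotype groups the arrays. Medians of the Dex arrays lay between 6.44 and 6.81 and their upper quartiles between 9.38 and 10.43.

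A small set of genes passed the threshold between the genotypes. Of the 19505 genes, 72 passed an adjusted p of 0.05, 25 higher in KO (0.128%) and 47 lower (0.241%). Besides Sox2 the lower genes were led by Fndc3c1, Rab3b, Fam135b and the mitochondrial glutamate carrier Slc25a18, and the higher genes by Clic5, Plagl1 and Ecrg4. The median difference was 1.55 among the higher genes and 1.72 in size among the lower ones. These sizes follow in part from the selection, as the smallest difference called was 0.97 in size. The signed median over all genes was -0.06. Of the called genes, 16 were lower by 2 or more against 2 higher by as much. KO and WT arrays did not overlap for 20 of the 25 higher and 29 of the 47 lower genes, while over all genes 37 (0.190%) lay wholly higher and 57 (0.292%) wholly lower in KO.

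Without the array labelled Dex of culture 4, 24 genes (0.123%) were higher and 40 (0.205%) lower. Of the 72 genes, 22 higher and 36 lower ones were called again and 14 were lost. The 6 gained were Fzd9 (a Wnt receptor) and Chrm3 (a muscarinic receptor), both higher, and Arhgap26, Gabbr1, Abhd6 and Gpr37, all lower. Without culture 12, 33 genes (0.169%) were higher and 54 (0.277%) lower, with 71 of the 72 called again. Without WT culture 1 the count fell to 39, all of them among the 72. Higher genes made up 34.7% of the calls on the deposited values, 45.2% after quantile normalization and 48.2% after median centring. Counts rose to 141 with all 26 arrays and the culture as a random block, to 167 with the array cluster as a covariate and to 498 with array weights. The sign of each of the 72 was the same with the covariate and with the weights. The block fit leaves the differences themselves unchanged, so no sign could turn there.

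**Figure D1:**
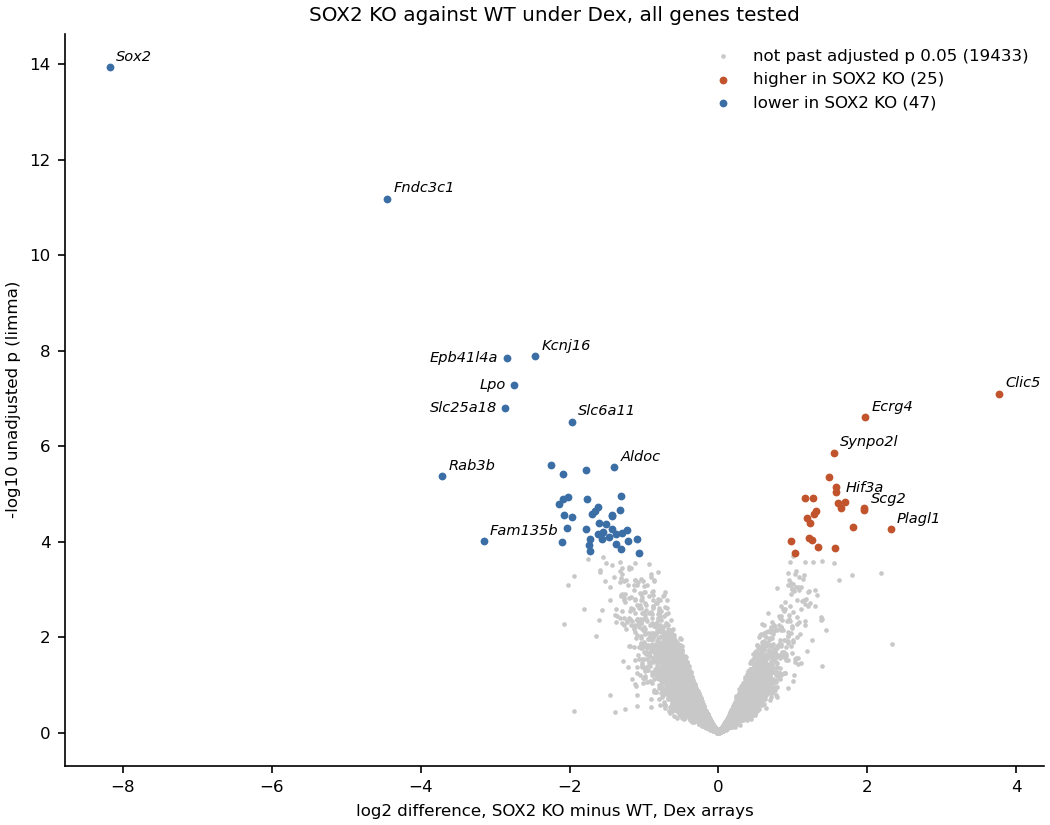
Each point is 1 of the 19505 genes, by its log2 difference (KO minus WT, 13 Dex arrays) and the -log10 of its unadjusted limma p. The 47 genes called lower (blue) reach further from 0 than the 25 called higher (orange), and Sox2 lies farthest out at -8.18.

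After Sox2, Fndc3c1 fell furthest. This gene with fibronectin type III domains measured 11.08, 10.61, 11.57, 11.23, 11.89 and 11.16 on the WT arrays and 6.35, 7.10, 6.72, 6.02, 6.90, 7.97 and 6.59 on the KO arrays. All KO arrays lay more than 2 units below the lowest WT array, culture 12 being the highest of them. The fall was 4.45 ± 0.29 units, a factor of 21.8 (adjusted p = 6.35e-08).

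Rab3b, a small GTPase of secretory vesicles, measured 12.05, 12.42, 13.47, 12.89, 14.25 and 14.40 in WT and 9.86, 12.17, 9.19, 7.57, 8.75, 8.75 and 10.48 in KO. The groups overlapped through KO culture 8, which lay above WT culture 1, while the other KO arrays lay well below. The difference was -3.71 ± 0.57 (adjusted p = 0.00551). Fam135b differed by -3.16 ± 0.63 (adjusted p = 0.0304), but the WT arrays themselves split. Cultures 1, 2 and 3 measured 10.68 to 10.85 and cultures 4, 5 and 6 measured 6.86 to 7.67, against 4.58 to 7.08 in KO. WT cultures 1, 2 and 3 are also those high in Eif2s3y and those of array cluster 1. The KO cultures high in Eif2s3y, 8 and 10, measured 7.08 and 6.45, and the others 4.58 to 6.33. What lies behind the split was not tested. The call of Fam135b was kept with Eif2s3y as a covariate. It was held in 5 of the 13 fits that left out 1 culture each, and the adjusted p rose as far as 0.104 (without WT culture 2). Lpo, the peroxidase lactoperoxidase, fell by 2.74 ± 0.31 units (adjusted p = 0.000206), from 9.01 to 10.38 in WT to 5.87 to 7.81 in KO.

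**Figure D2:**
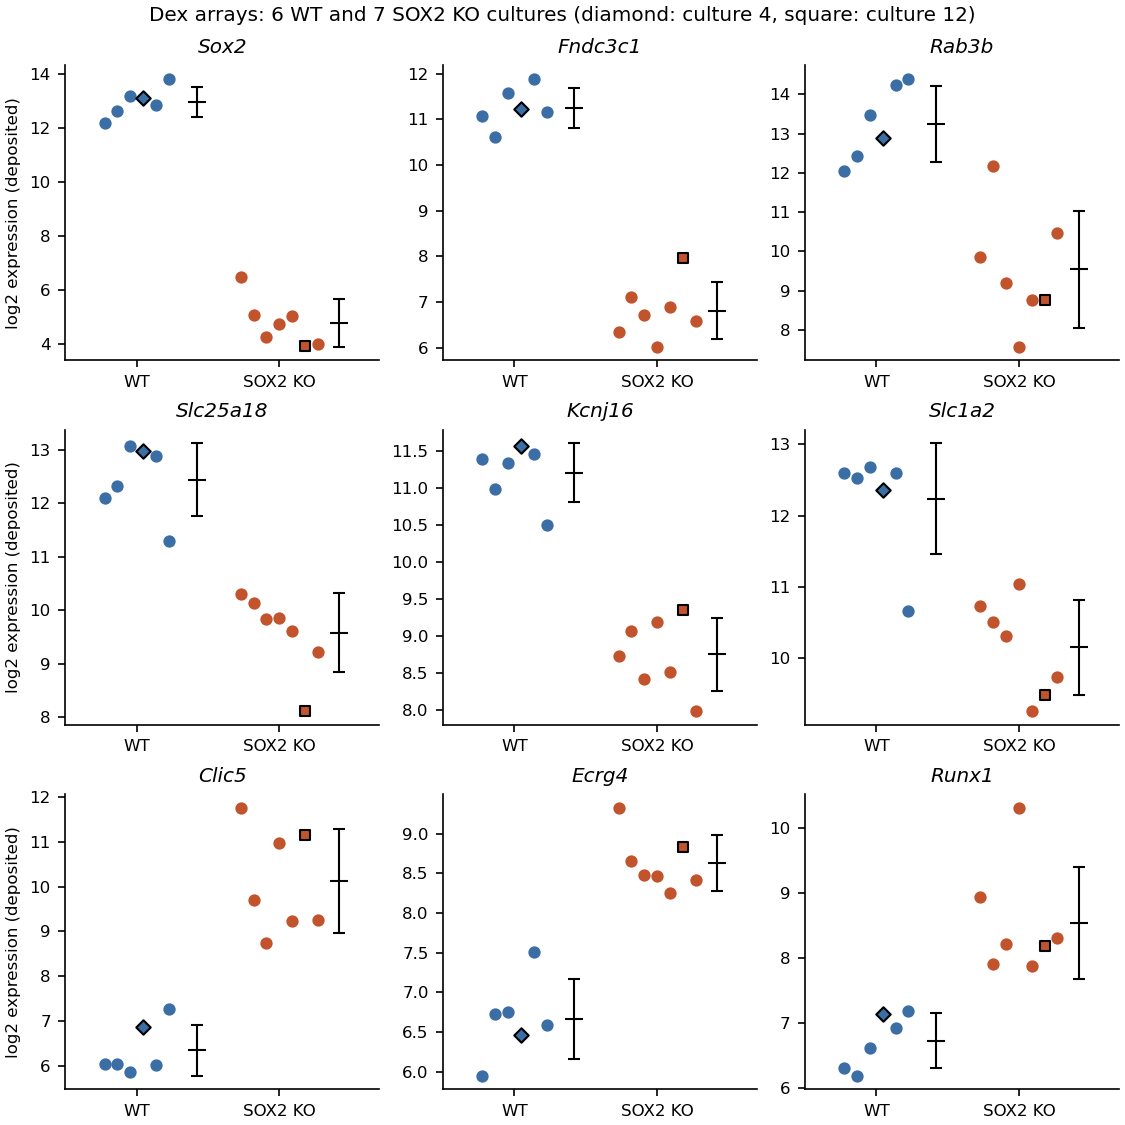
Log2 expression of 9 genes on the 13 Dex arrays, with 1 point per culture, WT in blue and KO in orange, the mean and SD beside each group, a diamond for culture 4 and a square for culture 12. Sox2, Fndc3c1, Slc25a18, Kcnj16, Clic5, Ecrg4 and Runx1 do not overlap between the genotypes, whereas Rab3b overlaps through KO culture 8 and Slc1a2 through WT culture 6.

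Several of the falls were in membrane transporters and channels with which glial cells take up glutamate, GABA, potassium and bicarbonate. Of 18 measured genes of glial ion and amino acid transport, 5 fell and none rose, where 0.241% of all genes fell and 0.128% rose. Some of these genes were known from earlier results when the list was made, so the count is a description. The median difference was -0.24 (-0.31 without culture 4) against -0.06 over all genes. The summed picture per array overlapped: the mean level of the list was 9.91 to 10.90 on WT arrays and 9.33 to 10.32 on KO arrays.

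The mitochondrial glutamate carrier Slc25a18 measured 12.10, 12.33, 13.08, 12.98, 12.89 and 11.30 in WT and 10.31, 10.13, 9.83, 9.85, 9.61, 8.11 and 9.22 in KO. The WT arrays were all higher, culture 6 being the closest to KO, and the difference was -2.87 ± 0.35 (adjusted p = 0.000438). The inward-rectifier potassium channel subunit Kcnj16 (Kir5.1) measured 11.39, 10.98, 11.34, 11.56, 11.46 and 10.50 in WT and 8.72, 9.07, 8.41, 9.19, 8.51, 9.35 and 7.98 in KO. The groups were again separate, with a difference of -2.46 ± 0.25 (adjusted p = 6.88e-05).

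Slc6a11, the GABA transporter GAT-3 of astrocytes, measured 14.46 to 15.03 in WT and 11.58 to 13.18 in KO, without overlap (-1.97 ± 0.25, adjusted p = 0.000664). The main glutamate transporter of astrocytes, Slc1a2 (GLT-1), measured 12.60, 12.53, 12.68, 12.36, 12.59 and 10.67 in WT and 10.73, 10.51, 10.32, 11.04, 9.26, 9.49 and 9.74 in KO. WT culture 6 sat among the KO arrays, and the other WT cultures were more than 1 unit above all of them. The difference was -2.08 ± 0.35 (adjusted p = 0.0105) and its call was kept when any single culture was left out. The sodium bicarbonate cotransporter Slc4a4 differed by -1.72 ± 0.34 (adjusted p = 0.0298), again with WT culture 6 low at 11.00 against 12.17 or more in the other WT cultures. This call was lost without culture 4 (adjusted p = 0.0644) and held in 4 of the 13 fits without 1 culture, with the highest adjusted p (0.104) without WT culture 2.

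Among 19 measured astrocyte genes, 3 fell and none rose (0.241% and 0.128% of all genes). Slc1a2 and Slc4a4 are on both lists, and the other is the glycolytic enzyme Aldoc, at 14.81 to 15.58 in WT and 13.24 to 14.21 in KO (-1.40 ± 0.21, adjusted p = 0.00439). The median over the list was -0.23, and -0.10 without culture 12. It was -0.28, -0.58 and 0.12 in array clusters 1, 2 and 3, where the WT side of cluster 2 is the array labelled Dex of culture 4 alone. With the array cluster as a covariate the median was -0.075 with 9 of the 19 genes positive. Gfap, the intermediate filament of astrocytes, spanned 5.13 to 11.36 in WT and 7.13 to 10.38 in KO (0.30 ± 0.75, adjusted p = 0.99). In RNA from whole cultures, fewer cells of a kind and less RNA per cell cannot be told apart.

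Other channels and membrane proteins were among the 14 largest falls. Kcna2, the voltage-gated potassium channel Kv1.2, differed by -2.09 ± 0.32 (adjusted p = 0.00544). It measured 10.41 to 11.09 in 5 WT cultures and 8.84 in WT culture 6, against 7.51 to 8.96 in KO. Epb41l4a, of the band 4.1 family that links membrane and cytoskeleton, fell by 2.84 ± 0.29 units without overlap (adjusted p = 6.88e-05). Cybrd1, a ferric reductase, fell from 13.34 to 14.75 in WT to 10.04 to 12.21 in KO (-2.25 ± 0.33, adjusted p = 0.00439). Nwd1 (-2.14), Mtmr11 (-2.10), and St6galnac5, a sialyltransferase of ganglioside synthesis (-2.07), completed these falls. For Mtmr11 the adjusted p was 0.0312 with all arrays and 0.109 without WT culture 1, and for St6galnac5 it was 0.0143 and 0.0505.

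The lower genes outside these 14, 33 in number and 1 of them a predicted locus, differed by -2.04 to -1.06, and apart from Lama1 those named here were picked after their values were seen. They held Gstt1 (a glutathione transferase, -2.04), Lix1 (-2.02) and Mt3 (a metallothionein of brain, -1.60). Cbs (the first enzyme of transsulfuration) measured -1.43, Lrig1 (a negative regulator of EGF receptors) -1.30 and Ackr3 (a scavenger receptor for CXCL12) -1.31. Cell surface and matrix genes among them were the integrin subunit Itgb5 (-1.77), the laminin chain Lama1 (-1.70), Sulf1, which trims heparan sulfate (-1.78), Adgrl2 (-1.62) and Tenm3 (-1.23). Lix1, Itgb5, Lama1, Sulf1 and Adgrl2 were called whichever single culture was left out. The highest adjusted p was 0.0689 for Gstt1, 0.052 for Cbs, 0.0752 for Lrig1 and 0.0829 for Tenm3, all without WT culture 1, 0.0542 for Mt3 without KO culture 11, and 0.145 for Ackr3 without WT culture 2. Quantile normalization also ended the calls of Mt3 (adjusted p = 0.0547) and Ackr3 (adjusted p = 0.0902).

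Clic5 rose furthest. This member of the chloride intracellular channel family, which sits at actin-rich membrane structures, measured 6.05, 6.04, 5.86, 6.86, 6.02 and 7.26 in WT and 11.76, 9.71, 8.75, 10.98, 9.24, 11.16 and 9.25 in KO. The lowest KO array lay above the highest WT array, and the rise was 3.77 ± 0.44 units, a factor of 13.7 (adjusted p = 0.000258). Ecrg4, the precursor of a secreted peptide, measured 5.95, 6.73, 6.75, 6.47, 7.51 and 6.59 in WT and 9.33, 8.66, 8.48, 8.47, 8.26, 8.83 and 8.42 in KO. These groups did not overlap either (1.97 ± 0.25, adjusted p = 0.000594).

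Svep1, Scg2, Adamts12 and Fgf1, which code for secreted proteins, were also among the 14 largest rises. Svep1, a large adhesive matrix protein, rose by 1.96 ± 0.34 (adjusted p = 0.0131), from 6.02 to 8.04 in WT to 7.81 to 9.87 in KO. The granin Scg2 rose by 1.96 ± 0.34 (adjusted p = 0.0131), from 5.48 to 7.67 to 8.02 to 9.63. The metalloprotease Adamts12 rose by 1.64 ± 0.29 (adjusted p = 0.013). Fgf1, whose protein is also a supplement of the medium, measured 7.86 to 9.5 in WT and 9.77 to 11.11 in KO (1.71 ± 0.29, adjusted p = 0.0113). These 4 genes stayed past the threshold whichever single culture was left out.

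Runx1, Zfhx4, Dab2, Synpo2l, Cxxc5 and Rbms1 made up most of the other large rises. Runx1, a transcription factor of blood and neural crest lineages, measured 6.31, 6.19, 6.61, 7.14, 6.93 and 7.18 in WT and 8.93, 7.90, 8.22, 10.31, 7.87, 8.18 and 8.31 in KO. KO culture 10 was the highest and no KO array reached down to the WT range (1.80 ± 0.34, adjusted p = 0.0216). The call was kept in 9 of the 13 fits without 1 culture, with an adjusted p of up to 0.0741 (without WT culture 1), and it was 0.0503 with all 26 arrays and no block. Zfhx4 (a zinc finger homeobox factor, 1.58 ± 0.26), Dab2 (an endocytic adaptor, 1.57 ± 0.25), Synpo2l (an actin-associated protein, 1.55 ± 0.22) and Cxxc5 (a CXXC zinc finger protein, 1.48 ± 0.23) were separate between the groups, with adjusted p of 0.00995, 0.00806, 0.00265 and 0.00551. Rbms1, an RNA-binding protein, was less firm. Its WT arrays spanned 7.98 (culture 4) to 10.63, its KO arrays 10.60 to 11.17, and its adjusted p of 0.0394 became 0.0662 without culture 4 and 0.121 without WT culture 5. The call was kept in 2 of the 13 fits that left out a culture.

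The other 11 higher genes differed by 0.97 to 1.34 and are partly named here after their values were seen. Edil3 (1.34), Wls, the carrier of Wnt proteins to the cell surface (1.29), the ephrin receptor Epha5 (1.27), Plxdc2 (1.21) and the adhesion molecule Cntn4 (1.19) were among them. Epha5 was called without any single culture, whereas the highest adjusted p was 0.113 for Edil3 (without WT culture 5), and 0.0582 for Wls, 0.0778 for Plxdc2 and 0.0641 for Cntn4 (all without WT culture 1). Cntn4 was also lost with all 26 arrays and the culture as a random block (adjusted p = 0.163).

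**Figure D3:**
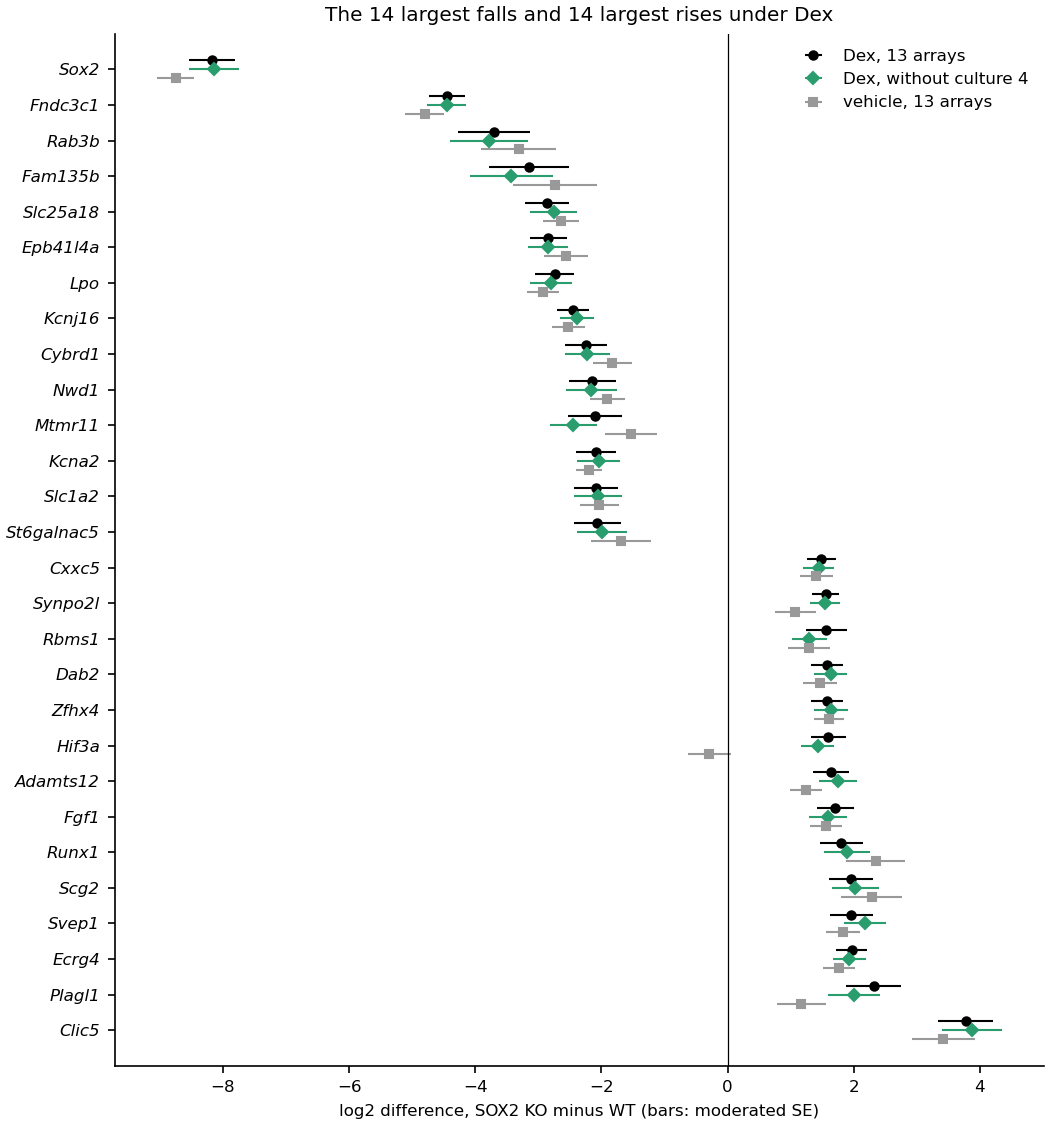
Log2 differences (KO minus WT) with moderated SE for the 14 largest falls and 14 largest rises under Dex, from all 13 Dex arrays (black), without culture 4 (green) and from the 13 vehicle arrays of the same cultures (grey). Hif3a differed by 1.60 under Dex and by -0.29 in vehicle, the latter being 0.06 without culture 4.

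Levels of the glucocorticoid targets overlapped between the genotypes under Dex. Of the 44 measured glucocorticoid-induced genes 1 rose (Hif3a) and 1 fell (Acot1), where 0.128% of all genes rose and 0.241% fell. Differences were positive for 30 of the 44, against 8062 of all 19505 genes, and the median was 0.17. After quantile normalization 35 of the 44 were positive (median 0.19, 2 called higher), and after median centring 34 (median 0.25). In these fits, which keep culture 4, 49.4% and 46.6% of all genes were negative, against 58.7% on the deposited values. Without culture 4 the median was 0.04 and 23 of the 44 were positive. Per array, the mean level of the list was 8.16 in culture 4, 8.79 to 9.51 in the other WT cultures and 8.83 to 9.38 in KO. Of 19 glucocorticoid-repressed genes none was called (median 0.01), and of 16 genes for the receptor and its partners none was called (median -0.07). The receptor gene Nr3c1 measured 7.12 to 8.04 in WT and 6.83 to 7.80 in KO (-0.09 ± 0.22, adjusted p = 0.99).

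Hif3a codes for an oxygen-regulated alpha subunit of the HIF family, is induced by glucocorticoids and was higher in KO. It measured 6.46, 6.80, 7.45, 5.70, 6.85 and 6.02 on the WT Dex arrays and 8.26, 8.29, 8.14, 8.73, 7.69, 8.31 and 7.61 on the KO Dex arrays. The groups did not overlap, and the array labelled Dex of culture 4 was the lowest. The difference was 1.60 ± 0.27 (adjusted p = 0.0114) and, without culture 4, 1.43 ± 0.26 (adjusted p = 0.0241). On the vehicle arrays Hif3a measured 5.05, 4.83, 5.74, 7.28, 5.25 and 5.00 in WT and 5.75, 5.62, 4.88, 5.13, 4.38, 5.19 and 5.71 in KO, so that here the genotypes overlapped and culture 4 was the highest. The vehicle difference was -0.29 ± 0.34 with culture 4 and 0.06 ± 0.25 without it (adjusted p = 0.973). The difference between the Dex and the vehicle genotype effects was 1.89 ± 0.46, and 1.37 ± 0.28 without culture 4, but with an adjusted p of 0.999 and 1 it did not pass the test.

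Plagl1, an imprinted zinc finger factor, gave 8.75, 8.77, 11.01, 7.70, 8.87 and 10.35 in WT and 12.30, 11.13, 11.42, 11.36, 10.49, 12.29 and 11.90 in KO under Dex. WT culture 3 reached into the KO range and culture 4 was the lowest. The rise was 2.31 ± 0.44 (adjusted p = 0.0218) and, without culture 4, 2.01 ± 0.42 (adjusted p = 0.0493). In vehicle it was 1.17 ± 0.39 (adjusted p = 0.334), and the test of the difference gave 1.15 ± 0.27 (adjusted p = 0.999). The Dex call was kept in 7 of the 13 fits without 1 culture and had an adjusted p of up to 0.0752 (without WT culture 1).

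Fkbp5, Per1, Fam107a, Klf9, Zbtb16, Tsc22d3 and Sgk1, further targets of the receptor, were not called on the 13 arrays. Fkbp5, a co-chaperone that restrains the receptor, measured 14.66, 14.88, 15.18, 12.36, 15.39 and 15.28 in WT and 15.42, 15.23, 15.46, 14.42, 15.63, 14.64 and 15.83 in KO. Apart from culture 4, the 2 ranges largely coincided, and the difference was 0.61 ± 0.41 with that array and 0.15 ± 0.26 without it. Per1, a clock gene, moved from 0.39 ± 0.45 to -0.18 ± 0.21 when culture 4 was left out, and Fam107a, an actin-associated stress gene, from -0.07 ± 0.68 to -0.92 ± 0.33 (adjusted p = 0.55). Klf9 changed from 0.64 to 0.31 and Zbtb16 from 0.66 to 0.35, neither called in either fit. Tsc22d3 (GILZ), an anti-inflammatory effector of glucocorticoids, measured 8.44 to 10.56 in WT and 8.16 to 9.13 in KO, with a difference of -0.84 ± 0.32 (adjusted p = 0.635) and of -1.04 ± 0.31 without culture 4 (adjusted p = 0.321). With array weights it passed (-1.06, adjusted p = 0.0171). Bcl6, also on the list, differed by 1.04 (adjusted p = 0.128), at 8.04 to 9.22 in WT and 8.80 to 10.24 in KO. Quantile normalization (1.18, adjusted p = 0.0176) and all 26 arrays with the random block (adjusted p = 0.0276) or without it (0.0268) took it past the threshold. Array weights (adjusted p = 0.0223) and the array cluster as a covariate (0.0159) did so too. Median centring and the fits without a single culture did not. Sgk1, a kinase, differed by 0.01 ± 0.42. Acot1, an acyl-CoA thioesterase on the list, was lower by a similar amount under Dex (-1.51 ± 0.28, adjusted p = 0.0191) and in vehicle (-1.54). Its adjusted p was 0.0493 without culture 4 and reached 0.0661 (without WT culture 1).

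**Figure D4:**
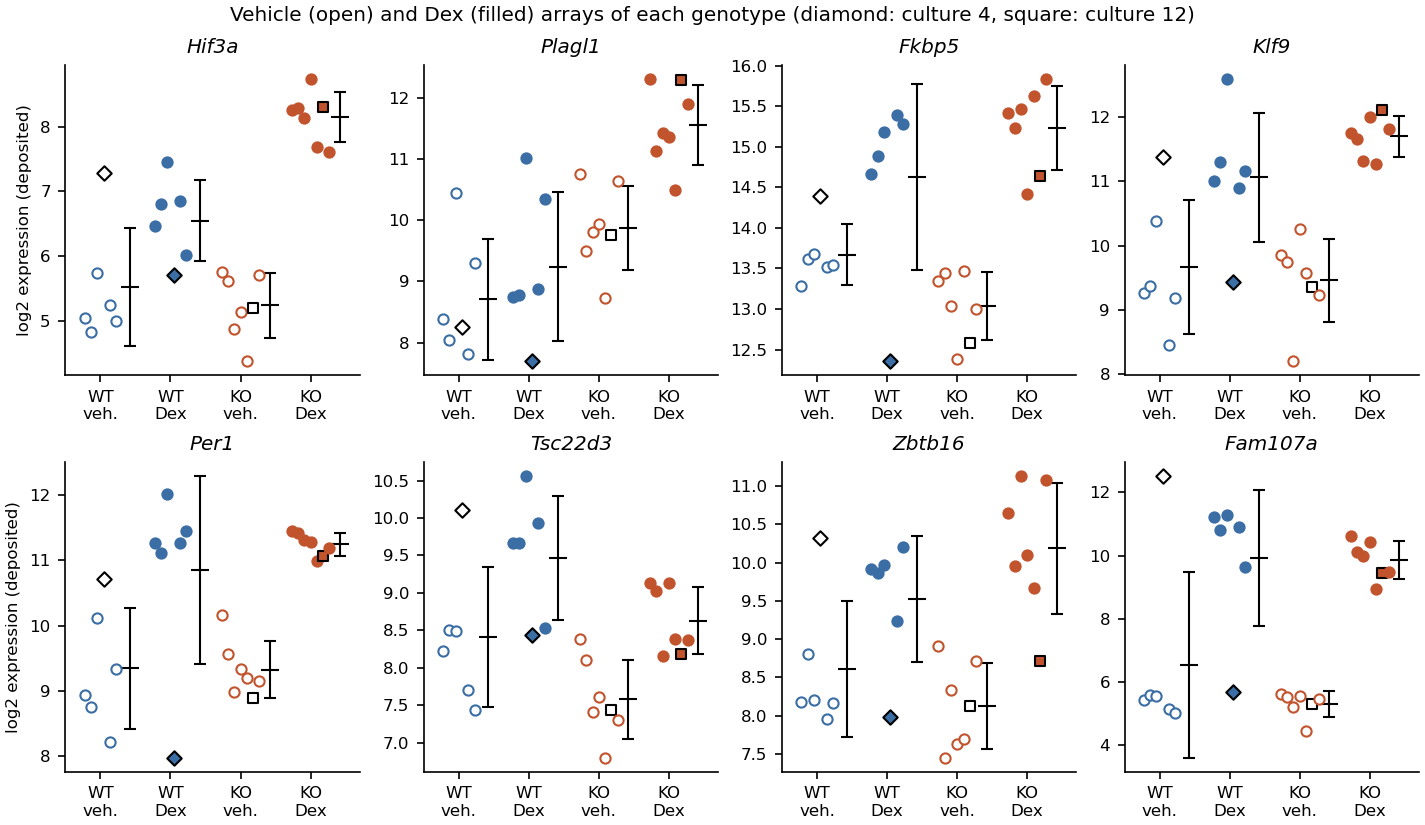
Log2 expression of 8 glucocorticoid-responsive genes on the vehicle (open) and Dex (filled) arrays of WT (blue) and KO (orange) cultures, with the mean and SD of each group, a diamond for culture 4 and a square for culture 12. For Hif3a the KO Dex arrays (7.61 to 8.73) lie above the WT Dex arrays (5.70 to 7.45), while for Fkbp5, Klf9, Per1, Zbtb16 and Fam107a the genotypes overlap under Dex, and in culture 4 the array labelled vehicle is the higher one for each of the 8 genes.

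The identity of the cells was read from marker lists. Of 23 measured genes of neural stem and progenitor cells, 18 lay above the array median on all Dex arrays, none was called, and the mean level per array was 11.21 to 11.82 in WT and 11.28 to 11.76 in KO (median difference -0.16). Nes, the intermediate filament nestin, measured 12.04 to 13.57 in WT and 11.68 to 13.50 in KO (-0.36 ± 0.33, adjusted p = 0.988), and Pax6, a progenitor transcription factor, 8.81 to 10.08 and 8.96 to 10.29 (0.01 ± 0.27, adjusted p = 0.998). Of 19 Sox family genes, Sox2, the deleted gene, was the one called, where 0.128% of all genes rose and 0.241% fell. Its close relatives Sox1 (-0.45 ± 0.24, adjusted p = 0.955) and Sox3 (0.14 ± 0.32, adjusted p = 0.99) were not, and Sox21 differed by -0.61 ± 0.32 (adjusted p = 0.938).

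Lists of other lineages gave few calls, where 0.128% of all genes rose and 0.241% fell. None of 16 oligodendrocyte genes was called (median -0.17, and -0.37 without culture 4), and their mean level per array ran from 8.48 to 10.81 in WT and 8.53 to 9.77 in KO. Cspg4 (NG2), a marker of oligodendrocyte precursors, measured 0.93 ± 0.32 (adjusted p = 0.486). None of 22 neuronal genes passed (median -0.28), the nearest being Syt1, a synaptic vesicle calcium sensor (-1.42 ± 0.32, adjusted p = 0.0713). Syt1 passed with all 26 arrays and the culture as a random block (adjusted p = 0.0146) and in 2 of the fits without 1 culture. None of the 12 microglia and macrophage genes lay above the array median on all arrays, with mean levels of 4.82 to 5.15 in WT and 4.70 to 5.17 in KO. Of 17 endothelial, mural and meningeal genes 1 did so, and none was called. Of 15 neural crest and non-neural genes 1 rose, Runx1, and the median of the list was -0.15.

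Signalling pathways were described in the same way. None of 20 Notch genes (median -0.22) and none of 12 Hedgehog genes (median -0.10, and 0.03 after quantile normalization) was called. The Hedgehog factor Gli2 (-1.12, adjusted p = 0.271) passed without WT culture 6 (-1.38, adjusted p = 0.0416). With array weights Gli2 (adjusted p = 0.00209) and the Notch target Hey1 (adjusted p = 0.00823) passed. None of 28 Wnt genes passed with all arrays (median -0.09), and Fzd9 did so without culture 4 (1.28 ± 0.26, adjusted p = 0.0493). Lef1, a transcription factor of the Wnt pathway, measured 3.86 to 4.62 in WT and 4.86 to 8.40 in KO without overlap, with 1.79 ± 0.42 and an adjusted p of 0.0981. Its highest value was that of KO culture 12, and without that culture the difference was 1.40 and the adjusted p 0.0199. Median centring (adjusted p = 0.047) and the fit of 26 arrays with a random block (0.0127) also took Lef1 past the threshold, and Fzd9 likewise (0.0217 and 0.0329). Neither gene passed after quantile normalization (adjusted p = 0.0799 for Fzd9).

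Of 24 genes of BMP signalling and its Id targets, 1 was called, where 0.128% of all genes rose and 0.241% fell. It was the ligand Bmp7, at 8.57 to 10.22 in WT and 6.89 to 9.05 in KO (-1.78 ± 0.34, adjusted p = 0.0218). Its call was kept in 7 of the 13 fits without 1 culture, with an adjusted p of up to 0.0706 (without WT culture 2). Id1 and Id2, targets of the pathway, did not pass on the 13 arrays as deposited. Id1, an inhibitor of differentiation factors, differed by 2.18 ± 0.51 (adjusted p = 0.0923). It passed after median centring (2.26, adjusted p = 0.0447), with the array cluster as a covariate (2.31, adjusted p = 0.0244), with the random block (adjusted p = 0.0265) and without WT culture 3 (2.62, adjusted p = 0.0149), though not after quantile normalization. Id2 measured 12.36 to 14.61 in WT and 14.95 to 15.37 in 6 KO cultures, with culture 12 at 12.90. Its difference was 1.37 ± 0.42 (adjusted p = 0.327), and 1.7 without culture 12 (adjusted p = 0.0204). With the array cluster as a covariate it was 1.62 (adjusted p = 0.0342). Of 26 EGF and FGF pathway genes, Fgf1 rose and none fell. Egfr, the receptor for the EGF in the medium, measured 10.99 to 12.08 in WT and 9.93 to 11.44 in KO (-0.90 ± 0.27, adjusted p = 0.284). With the array cluster as a covariate Egfr passed (-0.86, adjusted p = 0.0467). The clusters were drawn from these same expression values, so the passes of Id1, Id2 and Egfr in that fit are not separate support.

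Differences of cell cycle genes were mostly negative, and none of these genes was called. Of 25 genes of DNA replication and G1/S, 24 had negative differences with a median of -0.40, against -0.06 for all genes, of which 58.7% were negative. The count was 23 after quantile normalization and after median centring, with medians of -0.28 and -0.32, when 49.4% and 46.6% of all genes were negative. The list's median was -0.31 without culture 12. Mean levels per array were 11.00 to 11.36 in WT and 10.36 to 11.27 in KO cultures other than 12, and 10.09 in culture 12. The 3 array clusters gave medians of -0.10, -0.51 and -0.31, the WT side of the middle value being the array labelled Dex of culture 4 alone. The nearest gene to a call was E2f2 (-1.14 ± 0.37, adjusted p = 0.411). For 24 mitotic genes the median was -0.25, with 22 negative, and it was -0.14 without culture 12. After quantile normalization 17 of the 24 were negative. Of 12 cyclin D and CDK inhibitor genes none was called (median -0.06, and 0.12 without culture 12).

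Few genes of the remaining lists were called, where 0.128% of all genes rose and 0.241% fell. Of 25 matrix and adhesion genes Svep1 rose and Lama1 fell (median -0.10), and of 23 genes of secretory granules and vesicles Scg2 rose and Rab3b fell (median -0.09). Of 21 glycolysis and hypoxia genes Hif3a rose and Aldoc fell (median -0.08). No gene was called among 16 of cholesterol and fatty acid synthesis (median 0.01), 20 of the circadian clock (-0.05, and -0.17 without culture 4) and 23 of inflammation and interferon response (0.07). In the last list 18 of the 23 differences were positive, 19 after quantile normalization and after median centring, and 10 without culture 12. Of all genes, 58.7%, 49.4%, 46.6% and 60.6% were negative in these fits. Vcan, a matrix proteoglycan, did not overlap between the groups (11.52 to 13.12 in WT and 13.18 to 13.91 in KO) but had an adjusted p of 0.162. It passed after quantile normalization (1.06, adjusted p = 0.0238).

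**Figure D5:**
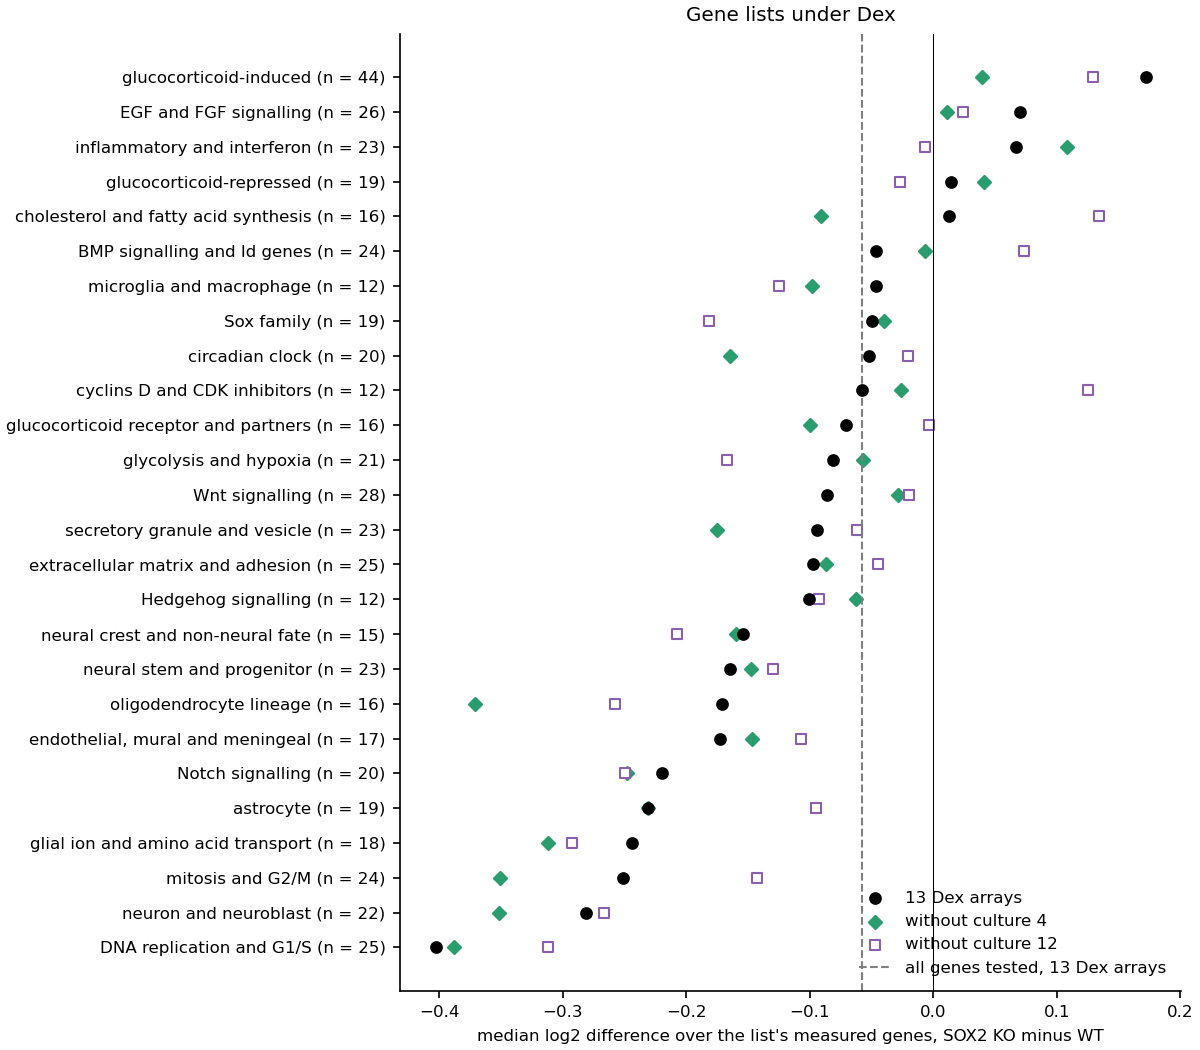
Median log2 difference (KO minus WT) of each of the 26 gene lists, from the 13 Dex arrays (black), without culture 4 (green) and without culture 12 (open squares); the dashed line is the median of all genes (-0.06). The DNA replication list lies lowest (-0.40), and the glucocorticoid-induced list lies highest (0.17) with all arrays and at 0.04 without culture 4.

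On the vehicle arrays of the same cultures, 29 genes (0.149%) were higher and 83 (0.426%) lower. Called in both were 15 higher and 38 lower genes, 73.6% of the Dex calls and 47.3% of the vehicle calls. Both comparisons rest on the same 13 cultures, so the overlap is a description and not a second observation. Side by side, Fndc3c1 differed by -4.45 under Dex and -4.80 in vehicle, Kcnj16 by -2.46 and -2.52, Slc1a2 by -2.08 and -2.03, Clic5 by 3.77 and 3.42, and Runx1 by 1.80 and 2.35. Of the 72 genes, 10 higher and 9 lower ones were called under Dex and not in vehicle, among them Hif3a, Plagl1, Synpo2l, Fam135b and Mtmr11. Without culture 4 the last pair passed in vehicle too (Fam135b -3.13, adjusted p = 0.0291; Mtmr11 -1.81, adjusted p = 0.0321). The test of the difference itself, on the Dex minus vehicle value of each culture, called 0 genes in limma, and 0 without culture 4. At an unadjusted p under 0.05 lay 688 genes, and 644 without culture 4. Both counts are below a share of 0.05 of the 19505 genes, the share that chance gives. For none of the 19 genes called under Dex alone was the genotype effect shown to differ between the treatments.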

How the data were processed

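Biotin-labelled cRNA from total RNA of each culture was hybridised to 1-colour arrays, per the labels' protocols. The authors deposited a table of 22206 transcript clusters whose values were read as log2 expression. The base of the logarithm and the normalization are not given in the sources used here. Of the clusters, 19572 carry 1 gene symbol, 0 carry several and 2634 carry none. The last were left out. For 55 genes with more than 1 cluster the one of highest mean was used. The number of arrays limits the precision.

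The main test was limma 3.58.1 (lmFit, eBayes) in R 4.3.3 on the 13 Dex arrays, with Benjamini-Hochberg adjustment over 19505 genes and an adjusted p of at most 0.05. In simulated data of that design and 19505 genes it recovered 38% of changes of 1 and 94% of changes of 2 log2 units, with 5 false calls. The simulated noise was independent between genes and arrays, without array clusters or outlying arrays, so these rates need not hold for the real arrays. Errors are moderated standard errors. The culture numbers do not pair WT with KO. Vehicle and Dex arrays of a number come from the same culture by their labels, and the difference between treatments was tested within cultures. With group means taken out, the profiles of such pairs correlated at 0.312 to 0.731, which alone does not show the pairing.

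Named were Sox2, the 14 largest rises and 14 largest falls among called genes, up to 5 genes of smallest p of a list, 6 genes gained without culture 4 and 9 glucocorticoid pathway genes. The genes, the 26 lists (545 genes) and the tests were chosen with earlier results of these data known. Lists are described by counts and medians. Predicted loci were counted and not named. The defining markers Nes, Pax6, Gfap and Sox3 and some other called genes were added after their values were seen. Alternatives were median centring or quantile normalization, leaving out cultures, all 26 arrays with and without the culture as a block, the array cluster or Eif2s3y as a covariate, array weights, a robust trended prior, a minimum mean, a minimum fold and the mean of a gene's clusters.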

Additional observations from a re-analysis of the deposited data

Results flagged for a closer look

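Of 280 tests for a single array far from its group of Dex arrays (Dixon's ratio at the 95% level), 23 marked one. Chance marks about 1 in 20. Of the 23, 12 lay in KO culture 12, 4 in WT culture 6 and 3 in the WT array labelled Dex of culture 4.

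In culture 4 the low values were 12.36 for Fkbp5 (14.66 or more in the other WT cultures), 7.98 for Per1 (11.11 or more) and 5.68 for Fam107a (9.65 or more). In WT culture 6 they were 8.84 for Kcna2 (10.41 or more), 10.67 for Slc1a2 (12.36 or more), 11.00 for Slc4a4 (12.17 or more) and 10.67 for Plxdc2 (11.73 or more). Bmp7 was low in WT culture 5, at 8.57.

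In KO culture 12 the high values were 4.96 for Tnf, 7.33 for Dlx1, 6.33 for Aif1, 8.40 for Lef1 and 6.58 for Cntn4. The low values there were 14.45 for Hsp90aa1, 11.94 for Apc, 12.90 for Id2, 7.76 for Cdt1, 6.31 for Cdc6, 11.92 for Ccnd3 and 6.23 for Nr1d1. The call of Cntn4, of these the one called under Dex, was kept without that culture. Among the other KO cultures, Cspg4 was low in culture 11 (10.87), Sulf1 low in culture 13 (5.47) and Tenm3 high in culture 8 (9.83).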

How the results depend on the processing

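The 72 calls under Dex became 110 with all 26 arrays and no block, 141 with the culture as a random replicate block, 498 with array weights and 167 with the array cluster as a covariate, and 39 to 98 when 1 culture was left out. The 112 vehicle calls became 193 with quantile normalization, 315 with array weights and 418 with the array cluster as a covariate. This block links the vehicle and Dex arrays of a culture and pairs no WT with a KO culture, since no number occurs in both. The difference between the treatments gave 0 calls in limma under each alternative run. Of 71 called genes with a symbol that is not a predicted locus, all kept their sign in each alternative, 35 were called in every fit without 1 culture and 34 in every alternative. The fits of 26 arrays, the robust trended prior and the minimum fold leave the differences unchanged, so no sign could turn there. The cause of the shifts in the counts was not tested, and the array clusters were drawn from the same expression values as the calls.

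Signs turned for 5 genes that were not called. Fam107a was 0.13 with quantile normalization, 0.012 with median centring, 0.32 with the array cluster and 0.24 with Eif2s3y as a covariate, and -0.92 to 0.21 without 1 culture. Nr3c1 was 0.011 with quantile normalization and -0.17 to 0.019 without 1 culture. Sgk1 was -0.61 with array weights, -0.037 with the array cluster, -0.37 without cultures 4 and 12 and -0.33 to 0.21 without 1 culture. Per1 was -0.15 and Aif1 -0.035 without cultures 4 and 12, and Per1 was -0.18 to 0.63 without 1 culture.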
